A study of Mus musculus with 15 samples.

Results

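Translation factors are the proteins that start and extend a polypeptide on the ribosome, and their messenger RNAs were followed here in the plantaris, a fast hindlimb muscle, of untrained, trained and detrained mice. The genes were all protein-coding rows of the count table whose symbol begins with Eif or Eef and a digit, which gave 69 of 20406 genes. Of these, 41 are initiation factors, 6 are elongation factors proper, and 22 are kinases, binding proteins, modifying enzymes, eIF5A, eIF6 and others that carry such a symbol. All animals were adult male HSA-GFP mice, in which a human skeletal actin promoter (HSA-rtTA) switches on a fluorescent histone (TRE-H2B-GFP) in muscle fibres, so that every group, controls included, carries both transgenes.

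The 6M_UT libraries came from untrained mice of 6 months and the 6M_PoW libraries from mice of 6 months that had done 8 weeks of PoWeR, progressive weighted wheel running. The 9M_UT libraries came from untrained mice of 9 months, and the 9M_PoW+DT libraries from mice of 9 months that had trained for 8 weeks and then spent 12 weeks without the wheel. The 6M_POW_LD libraries are titled as trained replicates 4 to 6 of 6 months and carry LD identifiers, which the labels do not explain. Each group held 3 libraries. The labels do not say that they came from separate mice, so p-values here reflect only library-to-library spread, which may be technical. The treatment field of the labels names the opposite condition for all 9-month libraries and calls the LD libraries sedentary. The direction of each comparison with these groups therefore rests on the titles, which the column names of the count table match. Identifiers also form separate series for the 6-month, 9-month and LD libraries, so series and age, or series and LD, cannot be told apart.

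Totals ran from 18865048 to 27688842 counts per library, and the 69 genes held 0.862% to 0.969% of them. The muscle label was met by its markers: Acta1, the skeletal actin, stood at 18930 to 24880 CPM (counts scaled to a common effective library total) and Ckm, the muscle creatine kinase, at 12900 to 15760 CPM. The myosin heavy chain genes varied more between libraries, with Myh4 at 25970 to 59220, Myh1 at 8384 to 16840 and Myh7 at 0.4917 to 223.5 CPM. The part of this variation in the results for translation factors was not tested. Of the 69 genes, 67 passed the filter on low counts, with 41 of 41 initiation and 6 of 6 elongation factors among them. The other two, the methyltransferase gene Eef1akmt3 and the helicase-like Eif4a3l1, stayed at 0.241 and 0.187 CPM or less in every library and were not tested.

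Protein synthesis begins when eIF2, loaded with GTP and the initiator tRNA, joins the small ribosomal subunit together with eIF1, eIF1A, eIF5 and the large scaffold eIF3, while eIF4E, eIF4G and the helicase eIF4A bring in the capped end of the messenger. eIF5B then joins the large subunit, eEF1A delivers each aminoacyl-tRNA, the eEF1B complex (Eef1b2, Eef1d and Eef1g) reloads eEF1A with GTP, and eEF2 moves the ribosome along. The 4E-binding proteins hold eIF4E back until mTORC1 phosphorylates them, the eIF2 kinases slow initiation under stress, and Eef2k, the kinase of eEF2, slows elongation. Adult muscle and neurons are known for replacing the widespread eEF1A1 with its paralogue eEF1A2.

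The comparison of the eEF1A paralogues turns on whether their reads can be told apart, so stretches of both coding sequences are shown. Eef1a1 (chromosome 9, 78478449 to 78489151, minus strand, on mm10) and Eef1a2 (chromosome 2, 181147653 to 181157014, minus strand) were 79.94% identical over 1386 coding bases in the GENCODE M21 models, and their longest identical run was 23 bases. The most alike 60 bases, coding bases 73 to 132, differed at 5 positions, and the least alike, coding bases 643 to 702, at 22, shown here in capitals.
Eef1a1 most alike: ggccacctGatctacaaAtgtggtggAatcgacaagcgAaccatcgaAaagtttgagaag
Eef1a2 most alike: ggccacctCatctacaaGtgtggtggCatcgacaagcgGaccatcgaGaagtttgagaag
Eef1a1 least alike: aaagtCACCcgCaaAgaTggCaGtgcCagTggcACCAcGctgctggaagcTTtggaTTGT
Eef1a2 least alike: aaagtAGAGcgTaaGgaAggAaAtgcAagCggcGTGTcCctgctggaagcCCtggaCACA
The transcripts shared 0 stretches of 50 bases with each other. Eef1a1 did share 59.2% of its 50-base stretches with 20 other genes, processed pseudogenes such as Gm13456 among them, whereas Eef1a2 shared none, so Eef1a1 levels depend on how the authors' counting placed such reads.

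The start regions of the paralogues were read from RefSeq on GRCm38.p6, the assembly also called mm10, from 100 bases before to 30 bases after the listed start, to set the starts of the paralogues side by side. The RefSeq start of Eef1a1 lies inside the longer GENCODE span given above. Capitals mark matches on either strand to GGGCGG, the GC box.
Eef1a1, chr9:78481695-78481824, minus strand: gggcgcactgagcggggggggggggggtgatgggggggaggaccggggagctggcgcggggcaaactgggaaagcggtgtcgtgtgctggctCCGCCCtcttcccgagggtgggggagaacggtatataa
Eef1a2, chr2:181156986-181157115, minus strand: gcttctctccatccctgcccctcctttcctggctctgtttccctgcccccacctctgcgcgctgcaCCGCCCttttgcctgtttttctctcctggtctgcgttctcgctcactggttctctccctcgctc
Each window held 1 GC box, which 27.5% of 32851 RefSeq windows of this length and 39 of the 69 windows of 54 of the genes studied also held. Neither window held an exact match to TATAAA (the letters searched for the TATA box, in 6.38% of all windows), CAGCTG (an E-box of the MyoD type, 7.88%) or the MEF2 site (1.49%). This says only that these letters are not in these windows. The Eef1a1 window ends in tatataa, a near match to TATAAA that the search did not count.

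Levels between genes were compared per kilobase of the principal transcript. Eef1a2 was the highest of the 69 genes, at 739 CPM per kb on average over the 15 libraries, and Eef2 came next at 480.5. Eif1, which guards the choice of start codon, followed at 271.6 CPM per kb, then Eif5a at 156.4, the helicase Eif4a2 at 131.5 and Eef1a1 at 129.9. The eIF2 kinases Eif2ak2, Eif2ak3 and Eif2ak4 lay near 1 CPM per kb, below Eif2ak1, as the plot of levels by role shows.

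**Figure D1:**
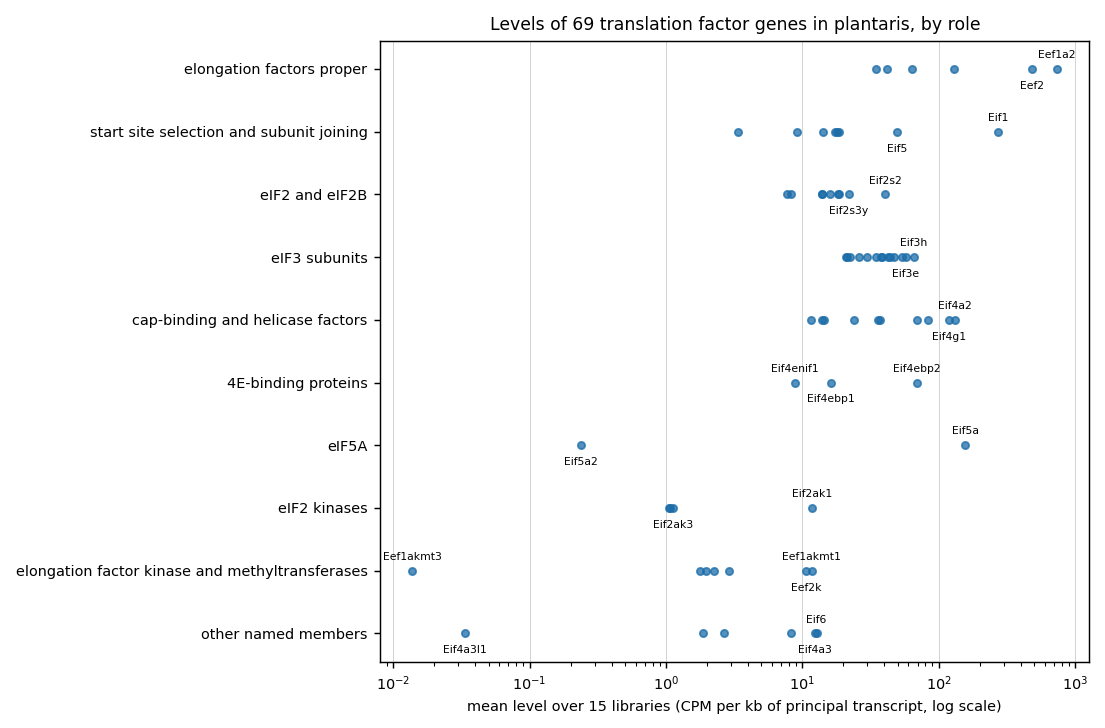
Mean level of each of the 69 genes over the 15 libraries (horizontal axis, CPM per kb of the principal transcript, log scale), by role (vertical axis); each point is a gene and the leading genes are named. Eef1a2 at 739 and Eef2 at 480.5 CPM per kb lie highest, and Eef1akmt3 and Eif4a3l1 lie lowest.

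Several factors exist as close copies, and some pairs were far apart in level in this muscle while others were close. Per kilobase, Eef1a2 was 4.67 to 6.96 times as abundant as Eef1a1 over the 15 libraries, Eif4a2 8.66 to 12.9 times as abundant as Eif4a1, and Eif1 11.3 to 19.6 times as abundant as Eif1b. Eif5a, the factor that carries hypusine, stood 453 to 1360 times above Eif5a2, whose level was only 0.601 to 1.89 CPM. Eif4ebp2 stood 2.73 to 6.09 times above Eif4ebp1, and Eif1ax, on the X chromosome, 4.26 to 7.11 times above Eif1a. The X and Y copies of the eIF2 gamma subunit were close, with Eif2s3x at 0.749 to 0.967 times Eif2s3y. The cap-binding genes were close as well, with Eif4e at 0.456 to 0.744 times Eif4e2 and 0.63 to 1.65 times Eif4e3. All these ratios depend on the transcript lengths used, such as 4991 bases for Eif4e and 1807 for Eif4e2. Without division by length, Eif4e stood above Eif4e2, at 69.42 against 43.18 CPM on average over the 15 libraries. Subunits of 1 complex also differed, since the eIF3 genes ran from 20.8 (Eif3d) to 65.5 (Eif3h) CPM per kb and the eIF2B genes from 7.67 (Eif2b3) to 18.3 (Eif2b5). Some of these ratios are uncertain, because over 20% of the 50-base stretches of 15 of the 69 genes occur in another gene, with 65.28% for Eif4a1, 31.58% for Eif1, 36.16% for Eif2s3x and 26.24% for Eif3h. Another 32 genes shared no such stretch, and 26 genes overlap a neighbouring gene, whose reads cannot be told apart where the counting ignored strand.

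Most of the genes were steady between libraries of 1 group. Among the 57 genes with a mean of at least 10 CPM, the median SD within groups was 0.109 on the log2 scale. It was lowest for Eif2s3x at 0.050, followed by the scaffold genes Eif4g2 at 0.055 and Eif4g1 at 0.056. Eif4ebp1 stood apart with an SD of 0.413, from 18.21 CPM in an LD library to 52.85 CPM in an untrained one, and its groups overlapped in each comparison but LD against untrained.

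Trained and untrained muscle of 6 months were set side by side to ask how 8 weeks of wheel running moved the RNA of the translation factors. None of the 67 tested genes passed. Eef1a1 came nearest: it stood at 209.9, 198.6 and 203 CPM in the untrained libraries and at 249.6, 259.9 and 251.9 CPM in the trained ones. The groups did not overlap, the means were 203.9 ± 5.7 and 253.8 ± 5.39 CPM (SD, n = 3 each), and the log2 fold change was 0.31 ± 0.065 (SE; edgeR quasi-likelihood, adjusted p = 0.133), rank 22 of 14919 genes by p. Eef1a2 did not follow, with 1641, 1462 and 1413 CPM without training, 1590, 1514 and 1735 CPM with it, and overlapping groups (log2 fold change 0.096 ± 0.077, edgeR adjusted p = 0.725).

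By the edgeR quasi-likelihood test at an adjusted p under 0.05, 0 of 67 genes and 0% of all 14919 genes were called for training. At an unadjusted p under 0.05 there were 7 genes, a share of 10.4% against 9.75% of all genes, with 1 higher (1.49% against 4.73%) and 6 lower (8.96% against 5.02%). DESeq2 called 1 gene, Eef1a1 (log2 fold change 0.31, adjusted p = 0.00391), beside 0.832% of the genes it gave an adjusted p, and limma-voom called 0. With the LD libraries counted as trained, edgeR called Eef1a1 too, at 0.34 (adjusted p = 0.0418), beside 0.191% of all genes. With them counted as untrained, as their treatment field reads, Eef1a1 was at 0.12 (edgeR adjusted p = 0.845).

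The initiation factors lay mostly below 0 after training. Their median log2 fold change was -0.092, with 7 of 41 above 0, while the median of all genes was 0.0013 with 50.2% above 0. The elongation factors proper had a median of 0.0095, with 4 of 6 above 0. In 12 of the 67 genes every trained library lay below every untrained one, a share of 17.9% against 7.96% of all genes, and in 2, Eef1a1 and the methyltransferase gene Eef1aknmt, every trained library lay above (2.99% against 8.16%). These genes share libraries and scaling, and a share over them is no test.

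The initiation genes with the smallest p for training act at start codon choice and on eIF2. Eif1ax, the eIF1A gene, stood at 93.95, 96.18 and 104.1 CPM without and 77.72, 87.34 and 80.85 CPM with training, without overlap (log2 fold change -0.26 ± 0.072). Eif5, which triggers GTP hydrolysis on eIF2, stood at 254.6, 199.9 and 221.5 CPM against 169.7, 173.6 and 195.1 CPM (-0.33 ± 0.093), and Eif2s2, the eIF2 beta subunit, at 118.3, 107.8 and 120.2 CPM against 87.03, 95.75 and 104 CPM (-0.28 ± 0.080). All 3 were lower in every trained library, with edgeR adjusted p from 0.233 to 0.257. Eef2k stood at 80.74, 63.01 and 72.91 CPM without and 52.71, 56.52 and 61.84 CPM with training (-0.34 ± 0.12, edgeR adjusted p = 0.347). Eif2ak2, the kinase PKR, stood at only 3.271 to 7.48 CPM and overlapped between the groups (0.47 ± 0.25, edgeR adjusted p = 0.586).

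None of the other factors fixed for description passed in training. Eef2 stood at 1584, 1486 and 1477 CPM without and 1391, 1421 and 1511 CPM with training (log2 fold change -0.077 ± 0.082), and Eef1b2 and Eef1d at 0.0061 ± 0.076 and 0.013 ± 0.081. Eif4e, the cap-binding protein, was at -0.10 ± 0.12, Eif3a, the largest eIF3 subunit, at -0.097 ± 0.13 and Eif2s1, the eIF2 alpha subunit that the stress kinases phosphorylate, at -3e-04 ± 0.087. The low-count kinases had wide errors and overlapping groups, with Eif2ak4 at -0.34 ± 0.21 and Eif2ak3 at 0.25 ± 0.22, and so did Eif4ebp1 at -0.21 ± 0.34. Eif4ebp2 was lower in every trained library, at 360.3 to 408 CPM against 412.4 to 419.2 CPM, but did not pass (-0.14 ± 0.076, edgeR adjusted p = 0.589). Eif5a lay lower in each as well, at 202.2, 209.9 and 211.7 against 224.1, 221.8 and 222 CPM.

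Some sums of markers of cells other than fibres also lay higher in every trained library, and others overlapped. The 12 markers of fibro-adipogenic progenitors, which build connective tissue, stood at 938.3 to 1054 CPM in 6M_UT and 1175 to 1375 CPM in 6M_PoW, with 12 of 12 above 0. The 7 smooth muscle and pericyte markers stood at 348.3 to 359.8 against 412.5 to 450.1 CPM (6 above 0). The 12 endothelial markers summed to 326.7 to 383.7 against 406.7 to 449.1 CPM (10 above 0), the 13 leukocyte and macrophage markers to 63.36 to 79.44 against 94.84 to 128.3 CPM (12 above 0), and the 12 fibre markers to 130500 to 149500 against 123800 to 136500 CPM (5 above 0). The sums overlapped for 7 satellite cell markers (45.95 to 78.07 against 50.83 to 62.35 CPM, 4 above 0), 6 Schwann cell markers (33.91 to 36.85 against 28.81 to 44.2 CPM, 5 above 0) and 7 adipocyte markers (108 to 123.2 against 120.5 to 129.9 CPM, 1 above 0). No marker was at 0 in any library. Their part in the Eef1a1 values was not tested, and in bulk muscle fewer cells of a type and less RNA per cell cannot be told apart.

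Eef1a1 held a larger share of the RNA of both eEF1A genes in every trained library, as the plot of the paralogues by library shows. It was 11.3%, 12.0% and 12.6% of their CPM in the untrained libraries and 13.6%, 14.7% and 12.7% in the trained ones, which did not overlap. The log2 ratio of Eef1a1 to Eef1a2 was higher by 0.22, from -2.88 ± 0.084 to -2.67 ± 0.12 (SD, n = 3 each). The two-sided exact permutation p was 0.1, the smallest that 3 against 3 can give, and 0.125 adjusted over the 5 comparisons of this ratio. The sum of both genes overlapped, at 1616.1 to 1850.7 CPM without and 1774.3 to 1986.8 CPM with training.

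**Figure D2:**
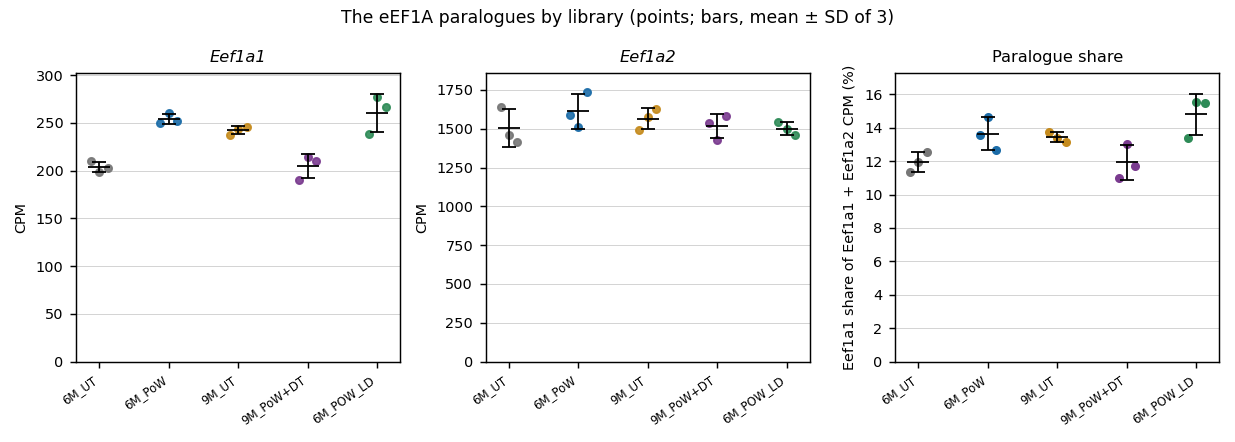
CPM of Eef1a1 and of Eef1a2 and the percent of their summed CPM held by Eef1a1 (vertical axes, from 0) in the 5 groups (horizontal axes); points are libraries and bars the mean ± SD of 3. Eef1a1 lies at 190.1 to 214.6 CPM in 6M_UT and 9M_PoW+DT and at 237.6 to 276.6 CPM in the other 3 groups, while Eef1a2 overlaps between all groups.

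Detrained and untrained muscle at 9 months were compared to ask what remained 12 weeks after training ended. Eef1a1 lay lower in the detrained libraries, at 190.1, 214.6 and 209.7 CPM against 237.6, 243.8 and 246.1 CPM in the untrained ones, without overlap. The log2 fold change was -0.24 ± 0.065 and did not pass (edgeR adjusted p = 0.576). Eif3i, a subunit of the mobile part of eIF3, stood at 60.53, 56.55 and 60.05 CPM in detrained and 47.62, 49.49 and 48.72 CPM in untrained muscle (0.28 ± 0.083, edgeR adjusted p = 0.576). Eef1g, the gamma subunit of the eEF1B complex, stood at 126.9, 120.7 and 127 against 117.4, 106.9 and 108.9 CPM (0.17 ± 0.073), also without overlap. Since Eef1g shares 64.3% of its 50-base stretches with 5 other genes, its level in every comparison depends on how such reads were counted. Eif4e3, a cap-binding protein of the eIF4E family, stood at 32.62, 37.24 and 32.9 against 37.77, 41.63 and 36.57 CPM, with overlapping groups (-0.17 ± 0.092). Every detrained library lay above every untrained one in 3 of 67 genes (4.48% against 6.19% of all genes) and below in 4 (5.97% against 5.72%).

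For detraining the edgeR quasi-likelihood test called 0 of 67 genes beside 0.0201% of all genes, DESeq2 and limma-voom called 0 as well, and 3 genes had an unadjusted p under 0.05, 4.48% against 6.52% of all genes. Of these 2 were higher (2.99% against 3.22%) and 1 lower (1.49% against 3.29%). The median log2 fold change over the 67 genes was -0.0022, with 33 above 0 (49.3% against 50.9% of all genes), and it was -0.024 for the initiation and -0.016 for the elongation factors. The log2 ratio of Eef1a1 to Eef1a2 was lower by 0.20 on the log2 scale in detrained muscle, at -2.89 ± 0.14 against -2.69 ± 0.037 (SD, n = 3 each), without overlap (exact permutation p = 0.1, adjusted 0.125). The highest detrained ratio, -2.7355, lay close to the lowest untrained one, -2.7229. Endothelial markers summed to 301.2 to 357 CPM in detrained and 367.1 to 391.8 CPM in untrained muscle, 0 of 12 above 0. Satellite cell markers were lower too, at 56.55 to 68.89 against 68.9 to 74.81 CPM, groups that nearly touched, with 2 of 7 above 0. Progenitor markers overlapped, at 1085 to 1168 and 1141 to 1218 CPM. The sums of leukocyte and macrophage, smooth muscle and pericyte, Schwann cell and fibre markers overlapped as well. The 7 adipocyte markers had a median log2 fold change of 1.065, with 6 above 0 and 4 higher at an unadjusted p under 0.05, and their sums overlapped at 110.5 to 199.4 and 119.1 to 131.2 CPM. Their part in the Eef1a1 values was not tested.

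Subtracting the training from the detraining effect asks whether trained and later detrained muscle departed from its age-matched control in the same way. For Eef1a1 it was -0.55 ± 0.092 on the log2 scale (edgeR adjusted p = 0.0581), rank 5 of 14919 genes by p. The call depended on the tool: Eef1a1 passed in DESeq2 at -0.56 (adjusted p = 2.56e-05), with edgeR and no filter (adjusted p = 0.0414) or a stricter filter on low counts (adjusted p = 0.0453), and without 6M_UT replicate 3 (-0.55, edgeR adjusted p = 0.0459). Over all its alternatives but those that regroup libraries, the value lay between -0.59 and -0.51. It was -0.58 (edgeR adjusted p = 0.0549) with the LD libraries counted as trained and -0.36 (edgeR adjusted p = 0.578) with them counted as untrained. With the 9-month groups exchanged, as their treatment field has them, it was -0.070 (edgeR adjusted p = 0.888), so that this result rests on the titles and the matching column names.

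Among initiation factors and Eef2k, differences in the opposite direction to that of Eef1a1 did not pass either. Eif5 differed by 0.52 ± 0.13, Eef2k by 0.55 ± 0.16 and Eif3i by 0.42 ± 0.12 on the log2 scale, with edgeR adjusted p from 0.226 to 0.280. Eif5 stood at 214.8, 210.8 and 251.1 CPM in detrained and 199.3, 199.4 and 196.7 CPM in untrained muscle of 9 months, and Eef2k at 76.84, 83.95 and 80.64 against 63.16, 82.98 and 62.85 CPM. Eif4e3 differed by -0.28 ± 0.13. The edgeR test called 0 of 67 genes beside 0.0268% of all genes and limma-voom called 0. DESeq2 called Eef1a1 beside 0.97% of the genes it gave an adjusted p. By edgeR, 10 genes had an unadjusted p under 0.05, 14.9% against 9.48% of all genes. Of these 8 were positive (11.9% against 4.79%) and 2 negative (2.99% against 4.69%), and 43 of 67 values lay above 0 (64.2% against 50.6%). Training and detraining share no library.

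Untrained muscle of 9 and 6 months was compared to ask how age, with its library series, moved the factors. The 6M_UT libraries also serve in training and the 9M_UT libraries in detraining, so the values of age are not independent of those comparisons. Eef1a1 lay without overlap, higher at 9 months (242.5 ± 4.43 against 203.9 ± 5.7 CPM, SD, n = 3 each; log2 fold change 0.25 ± 0.065, edgeR adjusted p = 0.336). Eef1g lay lower, at 117.4, 106.9 and 108.9 CPM against 130.9, 128.2 and 124 CPM (-0.20 ± 0.073, edgeR adjusted p = 0.606). Eif6, which keeps free large subunits apart from small ones, stood at 19.47, 21.91 and 20.7 against 19.02, 18.12 and 19.1 CPM (0.14 ± 0.10), and Eif5 was at -0.18 ± 0.093. The edgeR test and limma-voom called 0 of 67 genes, beside 0.0134% of all genes by edgeR, and 2 genes had an unadjusted p under 0.05, 2.99% against 6.72%, 1 higher (1.49% against 3.21%) and 1 lower (1.49% against 3.51%). Groups did not overlap in 2 genes that were higher (2.99% against 5.28%) and 6 that were lower (8.96% against 6.62%), and 31 of 67 values lay above 0 (46.3% against 49%). DESeq2 called Eef1a1 (0.26, adjusted p = 0.0458), beside 0.389% of all genes.

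The ratio of Eef1a1 to Eef1a2 was higher by 0.19 at 9 months on the log2 scale, without overlap (exact permutation p = 0.1, adjusted 0.125). Progenitor markers summed to 1141 to 1218 CPM at 9 and 938.3 to 1054 CPM at 6 months (11 of 12 above 0), and leukocyte markers to 83.47 to 94.48 against 63.36 to 79.44 CPM (12 of 13 above 0). Endothelial markers overlapped, at 367.1 to 391.8 against 326.7 to 383.7 CPM (9 of 12 above 0). The sums of satellite cell, smooth muscle and pericyte, Schwann cell, adipocyte and fibre markers overlapped too. The part of these markers was not tested. With the 9-month groups exchanged, the Eef1a1 value was 0.0099 and the ratio differed by -0.0072. The order of Eef1a1 means was thus 6M_UT at 203.9, 9M_PoW+DT at 204.8, 9M_UT at 242.5, 6M_PoW at 253.8 and 6M_POW_LD at 260.6 CPM. The lowest 2 groups overlapped each other, as did the highest 2.

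The LD libraries were compared with untrained muscle of 6 months, and here factors did pass. Eef1a1 rose and 9 genes fell: Eif1, Eif5, Eif2s2, the eIF3 subunits Eif3e and Eif3f, the helicase Eif4a2, its cofactor Eif4b, Eif4e3 and Eif4ebp2. The 10 called genes made up 14.9% of the 67, beside 4.99% of all 15181 genes, and by direction 1 rose (1.49%, against 2.15% of all genes) and 9 fell (13.4% against 2.83%). At an unadjusted p under 0.05 there were 22, 4 higher (5.97% against 9.72%) and 18 lower (26.9% against 10.3%), beside 20% of all genes. Groups did not overlap in 4 higher (5.97% against 12.2%) and 22 lower genes (32.8% against 13%), and 26 of 67 values lay above 0 (38.8% against 51.2%). Of the 9, 8 were among the 41 initiation factors, and of the 6 elongation factors proper edgeR called Eef1a1. DESeq2 called 12, beside 10.2% of the genes it gave an adjusted p, with Eef1g and Eif4g1 added to the 10, and edgeR with the stricter filter called 11, beside 7.73% of all genes, with Eef1g added.

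Genes that act around the start codon and on eIF2 were among those that fell. Eif1 (chromosome 11, 100319885 to 100322096) stood at 429.3, 390.9 and 405.5 CPM in untrained and 274.9, 266.9 and 326.9 CPM in LD libraries, with a log2 fold change of -0.49 ± 0.077 (edgeR adjusted p = 0.00122). Its trained level, 361.9, 332.2 and 377.7 CPM, lay between them without overlap. Eif5 (chromosome 12, 111538016 to 111546752) fell from 254.6, 199.9 and 221.5 to 181.4, 179.8 and 173 CPM (-0.33 ± 0.087, edgeR adjusted p = 0.0342), and Eif2s2 (chromosome 2, 154871410 to 154892935) from 118.3, 107.8 and 120.2 to 98.49, 76.18 and 94.1 CPM (-0.36 ± 0.092, edgeR adjusted p = 0.0308). Both LD levels overlapped those of trained muscle.

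Among the scaffold and cap factors Eif4b (chromosome 15, 102073773 to 102097173), which boosts the helicase eIF4A, fell. It stood at 304.5, 290.6 and 290.3 CPM untrained and 203.8, 214.6 and 207.5 CPM in LD libraries (-0.49 ± 0.090, edgeR adjusted p = 0.00345). Eif3e (chromosome 15, 43250058 to 43282719) stood at 105.1, 88.32 and 93.84 against 67.01, 71.33 and 68.36 CPM (-0.47 ± 0.083, edgeR adjusted p = 0.00305). Its complex partner Eif3f (chromosome 7, 108934417 to 108942951) stood at 121.5, 114.2 and 105.6 against 85.61, 94.95 and 94.66 CPM (-0.30 ± 0.073, edgeR adjusted p = 0.0226). The remaining 12 eIF3 genes did not pass, and the median over all 14 was -0.069.

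Eif4a2 (chromosome 16, 23107444 to 23114136) stood at 309.8, 290.1 and 308.5 CPM in untrained and 244.4, 253.9 and 247.8 CPM in LD libraries (-0.28 ± 0.066, edgeR adjusted p = 0.0217). Eif4e3 (chromosome 6, 99625135 to 99666771) stood at 38.56, 39.05 and 35.85 against 32.12, 29.96 and 24.13 CPM (-0.39 ± 0.10, edgeR adjusted p = 0.0384). Eif4ebp2 (chromosome 10, 61428491 to 61452661) stood at 418.6, 419.2 and 412.4 against 370.9, 321 and 341.2 CPM (-0.27 ± 0.076, edgeR adjusted p = 0.0477), near the threshold. Every LD library lay below every untrained one for all 9 genes that fell, as the plots of the called genes show. Eif4e3 overlaps Gm20696 and Eif4ebp2 overlaps Gm48086, both on the same strand. Eif4a2 overlaps Rfc4 on the other strand, and Eif2s2 overlaps the gene a, also on the other strand. Eif1, Eif2s2 and Eif3e share 31.58%, 27.8% and 22.03% of their 50-base stretches with other genes.

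**Figure D3:**
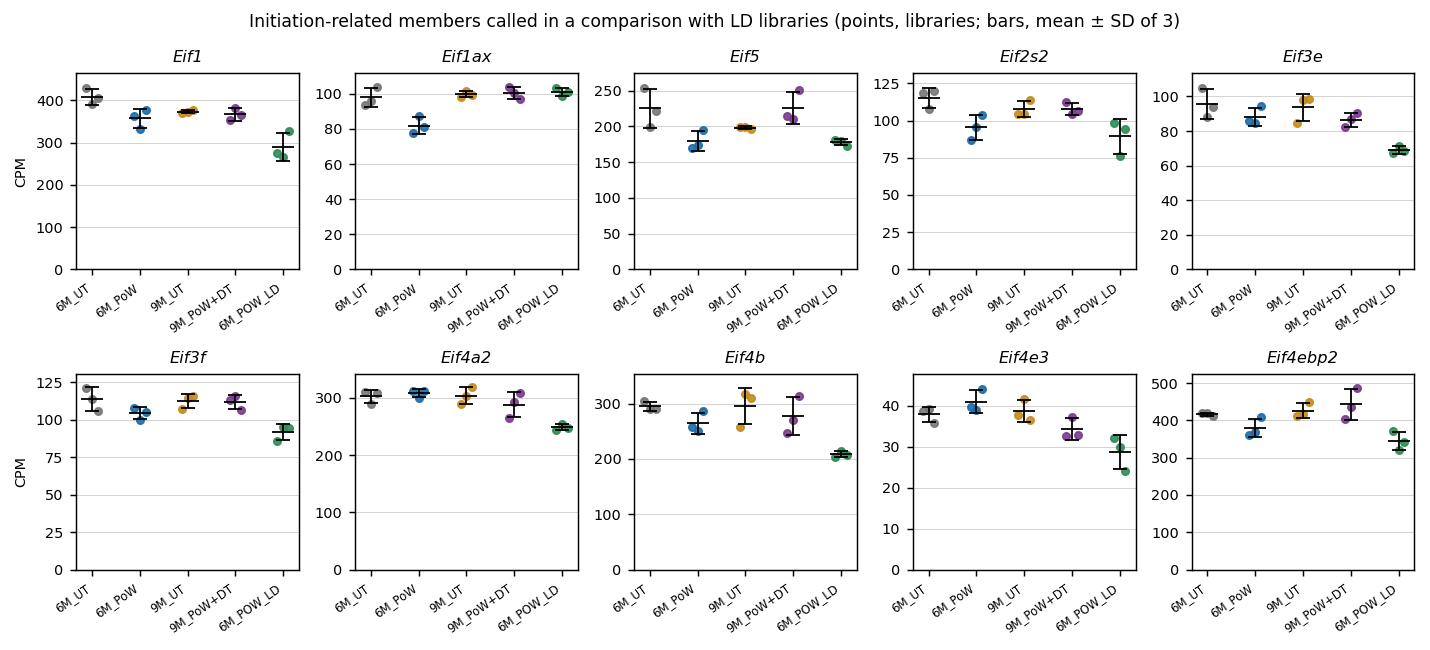
CPM (vertical axes, from 0) of the 10 initiation-related genes called in a comparison with LD libraries, in the 5 groups (horizontal axes); points are libraries and bars the mean ± SD of 3. Eif3e, Eif4a2, Eif4b and Eif3f lie lower in the LD libraries than in every library of the other 4 groups, and so, narrowly, do Eif1 and Eif4e3. Eif1ax lies lowest in 6M_PoW.

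Eef1a1 stood at 238.4, 276.6 and 266.7 CPM in the LD libraries and 209.9, 198.6 and 203 CPM in the untrained ones (log2 fold change 0.36 ± 0.068, edgeR adjusted p = 0.00456). Eef1a2 did not differ beyond its spread, at 1543, 1501 and 1460 CPM (0.0021 ± 0.072). The log2 ratio of Eef1a1 to Eef1a2 was higher by 0.35, without overlap (exact permutation p = 0.1, adjusted 0.125). No other elongation factor proper passed in edgeR. Eef2 was lower in every LD library, at 1342, 1389 and 1320 CPM (-0.16 ± 0.077, edgeR adjusted p = 0.255), as was Eef1g at 112, 106 and 107.5 CPM (-0.23 ± 0.069, edgeR adjusted p = 0.0640), and Eef1b2 was higher in each, at 91.15, 87.34 and 89.8 CPM (0.18 ± 0.072, edgeR adjusted p = 0.162).

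Eif4g2, a scaffold for messengers read without the cap-binding protein, was higher in each LD library, at 771, 690 and 721.3 against 633.8, 660 and 670.9 CPM (0.16 ± 0.062, edgeR adjusted p = 0.157). Eif4e was higher in each as well, at 78.14, 83.01 and 79.02 against 63.35, 72.5 and 71.6 CPM (0.22 ± 0.11, edgeR adjusted p = 0.299). Eif4ebp1, at 25.76, 18.21 and 25.09 against 52.85, 28.85 and 36.67 CPM, had the lowest value of all 67 genes but a wide error (-0.77 ± 0.33, edgeR adjusted p = 0.218). Eif2ak4, the kinase GCN2, stood at 4.479, 5.409 and 4.142 against 7.359, 5.735 and 6.497 CPM (-0.47 ± 0.21, edgeR adjusted p = 0.214), and Eif2ak3, the kinase PERK, overlapped (0.084 ± 0.22).

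The LD calls depended on single libraries. Eef1a1, Eif1, Eif3e and Eif4b kept an edgeR adjusted p under 0.05 with each of the 15 libraries left out in turn, at 0.0345 at most. Without 6M_UT replicate 1, 6M_UT replicate 3, 6M_POW_LD replicate 5 or 6M_POW_LD replicate 6 the count was 4, 5, 4 and 5, beside 2.48%, 3.26%, 1.85% and 2.81% of all genes, and Eif2s2, Eif4e3 and Eif4ebp2 were lost each time. Eif5 was lost in these cases too and without 6M_POW_LD replicate 4, with adjusted p up to 0.171. Eif4a2 was lost in the same 5 cases, with adjusted p up to 0.0752, and Eif3f without 6M_UT replicate 1, 6M_POW_LD replicate 4 or 6M_POW_LD replicate 5, with adjusted p up to 0.106. Eif4e3 was also lost without 6M_UT replicate 2 (adjusted p over all cases 0.0318 to 0.161), and Eif4ebp2 in 11 of the 15 cases (0.0305 to 0.205).

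Cell type markers differed here as well. In LD against untrained muscle the progenitor markers summed to 1185 to 1363 against 938.3 to 1054 CPM, with 12 of 12 above 0 and 4 called, and the leukocyte markers to 106.4 to 127.3 against 63.36 to 79.44 CPM, 13 of 13 above 0 and 1 called. The 6 Schwann cell markers summed to 42.82 to 112.6 against 33.91 to 36.85 CPM, and the fibre markers to 131500 to 147800 against 130500 to 149500 CPM, 3 called higher and 1 lower. The 7 smooth muscle and pericyte markers stood at 411.1 to 437 against 348.3 to 359.8 CPM (6 above 0). Endothelial sums overlapped, at 375.3 to 454.8 against 326.7 to 383.7 CPM (10 of 12 above 0). Satellite cell sums (57.34 to 62.79 against 45.95 to 78.07 CPM) and adipocyte sums (87.82 to 139.8 against 108 to 123.2 CPM) overlapped too. The part of these markers in the results for translation factors was not tested.

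The LD libraries were also compared with the trained libraries of the same age, whose title they share. Eif1ax rose and Eif3e, Eif4a2 and Eif4e3 fell, 4 of 67 genes or 5.97%, beside 2.40% of all genes (1 higher, 1.49% against 1.28%; 3 lower, 4.48% against 1.12%). At an unadjusted p under 0.05 there were 16 beside 14.3% of all genes, 10 higher (14.9% against 7.09%) and 6 lower (8.96% against 7.18%). Groups did not overlap in 8 higher (11.9% against 9.95%) and 10 lower genes (14.9% against 11.5%), and 32 of 67 values lay above 0 (47.8% against 49.8%). DESeq2 called 7, beside 5.03% of the genes it gave an adjusted p, with Eif1, Eif4b and Eif4g2 added to the 4. Eif1ax (X chromosome, 159372178 to 159389928) stood at 103.6, 98.75 and 100.9 CPM in LD and 77.72, 87.34 and 80.85 CPM in trained libraries (0.31 ± 0.068, edgeR adjusted p = 0.0188). Its LD level overlapped that of untrained muscle.

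Eif4e3 was lower at 32.12, 29.96 and 24.13 against 39.68, 38.85 and 44.09 CPM (-0.50 ± 0.10, edgeR adjusted p = 0.0150), and Eif4a2 at 244.4, 253.9 and 247.8 against 312.6, 300.5 and 311.6 CPM (-0.30 ± 0.066, edgeR adjusted p = 0.0199). Eif3e stood at 67.01, 71.33 and 68.36 against 85.86, 84.4 and 94.24 CPM (-0.35 ± 0.083, edgeR adjusted p = 0.0317). Eif4g2 was higher in each LD library than in each trained one (0.22 ± 0.062, edgeR adjusted p = 0.0667), and Eef1a1 overlapped (0.048 ± 0.067). The share of all genes called fell to between 1.01% and 1.37% in the 4 cases that follow. The count was 1 without 6M_PoW replicate 1, 0 without 6M_PoW replicate 3 (edgeR, with 14 at an unadjusted p under 0.05 and no other tool run), 1 without 6M_POW_LD replicate 4 and 1 without 6M_POW_LD replicate 6, and none of the 4 genes passed in all 15 cases. Without 6M_POW_LD replicate 6 all 4 genes were lost, and the gene called was Eif1. Both LD comparisons use the same LD libraries, so their values are not independent.

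**Figure D4:**
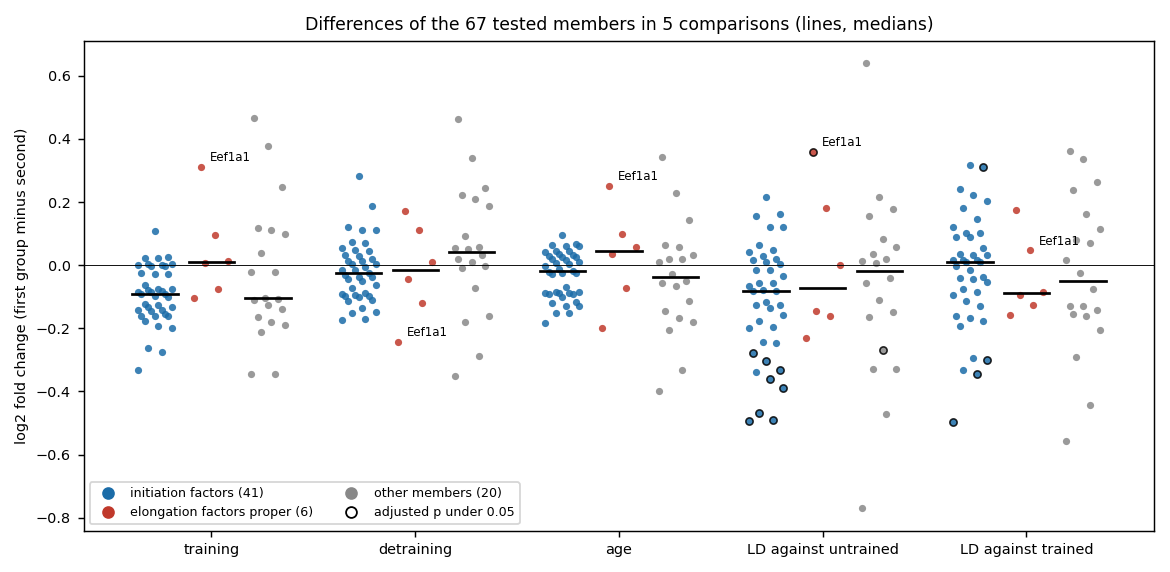
Log2 fold change (vertical axis, first group minus second) of the 67 tested genes in 5 comparisons (horizontal axis), split into initiation factors, elongation factors proper and others; each point is a gene, lines are medians and black rims mark an edgeR adjusted p under 0.05. Rims appear only in the LD comparisons, 10 and 4 in number, and Eef1a1 lies above 0 in all comparisons but detraining.

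Initiation and elongation factors were set against each other as sums within a library, a description with no test. The 41 initiation factors summed to 5027.5 ± 170 CPM in 6M_UT, 4635.8 ± 206 in 6M_PoW, 4945.1 ± 181 in 9M_UT, 4867.8 ± 211 in 9M_PoW+DT and 4487.2 ± 80.3 CPM in 6M_POW_LD (SD, n = 3 each). The 6 elongation factors summed to 3513.1 ± 184, 3589.4 ± 180, 3699.1 ± 198, 3502.5 ± 210 and 3383.1 ± 55.6 CPM in the same order, with Eef1a2 and Eef2 holding most of it. The sums are not per length, so only their change between groups can be read. Trained libraries had a higher log2 ratio of elongation to initiation than untrained ones by 0.15, at -0.37 ± 0.0086 against -0.52 ± 0.044, without overlap, and the sum that differed more was that of the initiation factors.

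At 9 months the detrained and untrained ratios overlapped, at -0.48 ± 0.030 and -0.42 ± 0.025, and the untrained ratio was higher by 0.098 than at 6 months, without overlap. The LD ratio, -0.41 ± 0.039, was higher than that of untrained muscle by 0.11 without overlap, and overlapped that of trained muscle. By role, initiation factors had a median of -0.081 in LD against untrained muscle, with 13 of 41 above 0, beside a median of 0.0083 over all genes. The elongation factors had a median of -0.072, with 3 of 6 above 0.

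**Figure D5:**
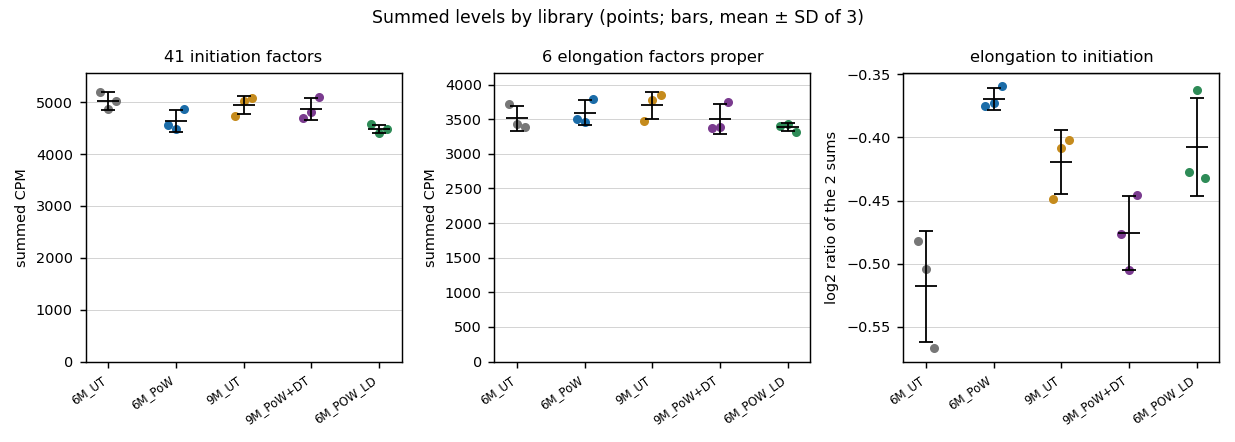
Summed CPM of the 41 initiation factors and of the 6 elongation factors proper (vertical axes from 0), and the log2 ratio of the sums (vertical axis not from 0), in the 5 groups (horizontal axes); points are libraries and bars the mean ± SD of 3. The initiation sum is 4486.5 to 4870.5 CPM in 6M_PoW and 4410.1 to 4570.3 CPM in 6M_POW_LD against 4861.9 to 5202.3 CPM in 6M_UT, and the mean ratio is highest in 6M_PoW.

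Other parts of the translation pathway were counted from fixed lists. In training, detraining and age, edgeR called 0 genes of the 39 of the mTORC1 pathway, 9 tested of termination and recycling, 9 mitochondrial translation factors, 22 cytosolic tRNA synthetases and 78 ribosomal proteins, and no other tool was read for them. At an unadjusted p under 0.05 training had 3 higher and 1 lower mTORC1 pathway genes, 2 lower of termination, 0 mitochondrial factors, 3 lower synthetases and 7 lower ribosomal proteins. In detraining there were 2 higher and 3 lower mTORC1 pathway genes, 1 higher mitochondrial factor and 1 higher ribosomal protein. With age there were 1 higher and 2 lower mTORC1 pathway genes, 1 lower mitochondrial factor and 22 lower ribosomal proteins. Over all genes the shares higher and lower at this p were 4.73% and 5.02% in training, 3.22% and 3.29% in detraining, and 3.21% and 3.51% with age. In LD against untrained muscle, 2 of 39 mTORC1 pathway genes rose, led by Deptor, an inhibitor within mTOR complexes (0.86 ± 0.12, edgeR adjusted p = 0.000458), and 3 fell. Of the 9 mitochondrial factors, 1 rose, the elongation factor gene Gfm1 (0.41 ± 0.073, edgeR adjusted p = 0.00305). The release factor gene Etf1 fell (-0.24 ± 0.067, edgeR adjusted p = 0.0434), the 1 called of 9 tested of termination and recycling. Of 22 tRNA synthetase genes, 1 fell, Mars1 (-0.40 ± 0.11, edgeR adjusted p = 0.0354). Of 78 ribosomal protein genes, 2 fell, led by Rpl4 (-0.34 ± 0.062, edgeR adjusted p = 0.00359). Over all 15181 genes, edgeR called 2.15% higher and 2.83% lower here, and the share of ribosomal protein genes that fell was near the latter. The medians of these lists were -0.13 for the mTORC1 pathway, -0.020 for termination and recycling, 0.20 for the mitochondrial factors, -0.14 for the synthetases and -0.11 for the ribosomal proteins, beside 0.0083 over all genes.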

How the data were processed

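The data were 15 plantaris RNA sequencing libraries. Values were expected counts for each gene, in 1 table deposited by the authors. Per the submitters' processing notes, STAR 2.7.3a, DESeq2, Partek and mm10 were used, without their roles. Which program counted reads, with or without strand, and on which gene models was not given in the sources used here. Expected counts were rounded to whole numbers, filtered with filterByExpr and scaled with edgeR's TMM factors. A robust edgeR quasi-likelihood model (edgeR 4.0.16, R 4.3.3) with 1 mean per group was fitted to the 12 libraries without LD (14919 genes) or, for LD comparisons, to all 15 (15181 genes). Genes with a Benjamini-Hochberg adjusted p under 0.05, over all genes tested, were called. CPM uses scaling factors over all 15 libraries. Ratios were compared by exact permutation. Alternatives used DESeq2 1.42.0, limma-voom (limma 3.58.1), other scalings and filters, regroupings, a replicate block and left-out libraries. The script was tested on simulated data. Within groups, the 15 pairs of libraries differed by 10.1 to 48.4 times the sampling noise, so none was counted as a duplicate. All 69 gene positions matched GENCODE M21, 3 of them under another symbol, and 54 genes had a RefSeq start region.

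Genes described by library were Eef1a1, Eef1a2, Eef2, Eef1b2, Eef1d, Eef1g, Eif4e, Eif4ebp1, Eif4ebp2, Eif2s1, Eif2ak3, Eif2ak4, Eif5a, Eif5a2, Eif6, Eef2k, Eif4a1, Eif4a2 and Eif3a, up to 2 higher and 2 lower genes with the smallest p in each comparison, and every called gene. From pathway lists, called genes could be named. Genes named for their level, spread or paralogue ratio, and Eef1aknmt, were chosen after their values were seen. Members and lists were chosen with earlier results of these data known.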

Additional observations from a re-analysis of the deposited data

Results flagged for a closer look

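The Eef1a1 to Eef1a2 ratio moved in opposite directions in the comparisons at 6 and 9 months. Every trained library lay above every untrained one at 6 months (log2 difference 0.22), and every detrained library lay below every untrained one at 9 months (-0.20). The detraining difference was thus lower than the training difference by -0.42 on the log2 scale, and this difference between the comparisons was not tested. The groups nearly touched in both comparisons. The highest untrained ratio at 6 months was -2.7991 and the lowest trained one -2.784. At 9 months the highest detrained ratio was -2.7355 and the lowest untrained one -2.7229. With the 9-month groups exchanged, as their treatment field names them, the difference at 9 months was 0.20. Eef1a1 alone, in a model over all genes, had a difference of -0.55 ± 0.092 (SE, edgeR adjusted p = 0.0581).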

How the results depend on the processing

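DESeq2 called 1 gene, Eef1a1, for training, for the difference of effects and for age, against 0 in edgeR, and 7 against 4 for LD against trained. For the difference of effects, edgeR with no filter, and with the stricter filter, called 1. With the LD libraries counted as trained, 1 gene was called for training, the Eef1a1 to Eef1a2 ratio differed by 0.28 (exact permutation p = 0.0238), and with them counted as untrained Eef1a1 was at 0.12, the Eef1a1 to Eef1a2 ratio differed by 0.039 (exact permutation p = 0.762) and the elongation to initiation ratio by 0.093. With a library left out, the counts were 4 to 10 for LD against untrained, 0 to 5 for LD against trained and 0 to 1 for the difference, and 0 for the other comparisons. Exchanging the 9-month groups reversed, by construction, the detraining values of Eef1a1 (0.24), Eef1a2 (0.043), Eif3i (-0.28), Eef1g (-0.17) and Eif4e3 (0.17), and the ratios (0.20 for Eef1a1 to Eef1a2, 0.056 for elongation to initiation). It also reversed Eif3i (-0.14) and Eif4e3 (0.065) in the difference of effects, Eif5 (0.0049) and the Eef1a1 to Eef1a2 ratio (-0.0072) in age, and gave 0.042 for the elongation to initiation ratio in age. That ratio was -0.0015 in detraining as a mean of log2 CPM. Eef1a2 in LD against untrained, at 0.0021, lay below 0 with DESeq2 size factors (-0.0029), in DESeq2 (-0.0029), with no filter (-0.0038) and without 6M_UT replicate 2, 6M_UT replicate 3 or 6M_POW_LD replicate 4 (-0.042 to 0.067 with any library left out). The cause was not tested. Replicate numbers did not pair the libraries (correlations of deviations of same-numbered libraries from -0.219 to 0.155, with 2 of 9 libraries best matched by their own number); with a replicate block the counts stayed at 0 for training, detraining, the difference and age, and the log2 ratios at 0.22, -0.20 and 0.19 (exact permutation p = 0.25, the smallest that 3 pairs can give). The number of libraries, 3 per group, limits the precision of every comparison.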
